A study of Homo sapiens with 12 samples.

Results

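The genes examined here are 32 targets and partners of the tumour suppressor p53, picked by name from the count table of an RNA sequencing experiment. All 32 were found among its 26259 genes, and all 32 were among the 14010 genes tested after a filter on low counts. Genes of the BCL2 family and death receptors were left out of the list. RNA came from untreated cultures of OCI-AML3, a long-established leukaemia cell line with an NPM1 mutation. There were 4 genotypes with 3 libraries each: the parental line (wt), and cells edited to lose CD33 (CD33 KO), CD123 (CD123 KO) or both (CD33/CD123 KO, called double KO here). Editing used electroporated Cas9 ribonucleoprotein, bead and flow sorting, and expansion from 1 cell, so each edited genotype is 1 clone and clone and genotype cannot be told apart. CD33 is a siglec found on myeloid cells, and CD123, the product of IL3RA, is the alpha subunit of the interleukin-3 receptor.

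The protein p53 is a transcription factor that is kept scarce in unstressed cells by the ubiquitin ligase MDM2 and held inactive by its relative MDM4. DNA damage, oncogene activity or nucleolar stress frees it, and it then binds paired decamers in its target genes and switches on brakes of the cell cycle, repair enzymes, metabolic enzymes and death signals. MDM2 is itself a target, which closes a feedback loop.

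The decamer that p53 binds, the p53 half-site, can be read directly in the promoters of some members. RefSeq promoter windows of GRCh38.p14, 250 bases before to 50 after a transcript start, were at hand for 26 of the 32 members, in 37 windows because some genes have more than 1 start. An exact match to the p53 half-site, a pattern that finds the same places on both strands, lay in 6 of the 37 windows and in 6.63% of all 35116 windows. The 6 are shown with the half-site in capitals. The factor binds paired decamers, and all but the DDB2 window hold only 1. The 6 members without a window could not be read.

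DDB2 (GRCh38.p14 chr11:47214975-47215003, + strand): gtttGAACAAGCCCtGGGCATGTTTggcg
AEN (GRCh38.p14 chr15:88621296-88621325, + strand): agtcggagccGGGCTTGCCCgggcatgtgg
FDXR (GRCh38.p14 chr17:74872986-74873015, - strand): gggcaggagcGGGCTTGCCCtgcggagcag
SESN1 (GRCh38.p14 chr6:109009018-109009047, - strand): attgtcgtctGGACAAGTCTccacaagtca
PLK2 (GRCh38.p14 chr5:58460199-58460228, - strand): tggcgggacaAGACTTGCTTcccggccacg
RPS27L (GRCh38.p14 chr15:63157517-63157546, - strand): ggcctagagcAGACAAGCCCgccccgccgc

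DDB2 holds 2 half-sites nearly side by side just after its start, an arrangement of 2 half-sites at most 13 bases apart that is found in 0.0285% of all windows. The motif CATGNNNNNNCATG (N is any base, both strands), which spells the centres of 2 adjoining half-sites and overlaps the half-site motif, lay in 0.373% of all windows and in 1 member window, that of TRIAP1, shown with those letters in capitals.

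TRIAP1 (GRCh38.p14 chr12:120446335-120446361, - strand): gggggaggCATGcacggaCATGaagcg

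The 6 members called against wt further on, SPATA18, CYFIP2, EDA2R, PERP, GDF15 and TP53I3, had no exact half-site in their windows, and the 100 bases before the start are shown for the first 4 of these. For CYFIP2 and EDA2R, which have 2 windows each, the first is shown. A match describes letters only, and the absence of one says nothing of binding elsewhere.

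SPATA18 (GRCh38.p14 chr4:52051204-52051303, + strand): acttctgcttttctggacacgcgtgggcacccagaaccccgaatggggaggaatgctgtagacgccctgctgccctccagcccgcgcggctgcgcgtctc
CYFIP2 (GRCh38.p14 chr5:157266023-157266122, + strand): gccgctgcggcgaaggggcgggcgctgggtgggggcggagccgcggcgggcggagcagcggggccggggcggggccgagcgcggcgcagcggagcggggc
EDA2R (GRCh38.p14 chrX:66639270-66639369, - strand): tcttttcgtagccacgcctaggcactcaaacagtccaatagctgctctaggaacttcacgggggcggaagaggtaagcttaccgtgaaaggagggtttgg
PERP (GRCh38.p14 chr6:138107420-138107519, - strand): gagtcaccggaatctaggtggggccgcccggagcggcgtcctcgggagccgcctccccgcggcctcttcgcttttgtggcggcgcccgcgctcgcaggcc

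Levels are given as CPM, counts scaled to a common library size, with the libraries of a group in the order 1, 2, 3. "Called" means that the adjusted p is under 0.05 and the log2 fold change over 1.5 in size, as in the series design, and "rose" or "fell" is also used for an adjusted p under 0.05 alone, with the log2 fold change beside it. Adjusted p-values come from the quasi-likelihood test of edgeR and run over all 14010 genes. The labels do not say that the libraries of a group came from separate cultures, so these p-values measure the spread between libraries, which may be technical. In these bulk samples, fewer cells using a gene and less RNA per cell cannot be told apart.

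Total counts ran from 15583315 to 61827969 per library, with 17216402 to 23665315 in double KO cells, and 3 counts in a library were worth 0.0504 to 0.187 CPM. Libraries of a group had Spearman's rho of 0.996 to 0.999 across genes, and every pair differed by more than sampling noise (chi-square per gene 2.40 to 12.7). Double KO library 3 stood further from libraries 1 and 2 (9.23 and 7.55) than these from each other (2.40). Without it the members called in double KO cells numbered 4 against wt, 1 against CD33 KO and 4 against CD123 KO cells. The largest gap lay between CD123 KO libraries 2 and 3 (12.7), where that group's other pairs had 6.44 and 5.21. The edited genes check the labels weakly, since a frameshift can leave a transcript in place: CD33 stood at 50.4, 39.9, 54.5 and 45.7 CPM and IL3RA at 7.54, 4.80, 3.52 and 7.64 in wt and CD33 KO, CD123 KO and double KO cells. All 10 myeloid markers had counts in every group, with a summed level of 928 to 935 CPM in wt, 1398 to 1429 in CD33 KO, 2485 to 2708 in CD123 KO and 1771 to 1824 in double KO cells. The 12 lymphoid, erythroid and megakaryocyte markers summed to 0.360 to 5.31 CPM in any library, with CD3E, CD3D and HBB among those at 0 in all groups. The myeloid sum was above wt in every clone, but the markers did not all move together. At adjusted p under 0.05, 6 of the 10 rose and 3 fell in CD33 KO cells, where 30.6% and 32.5% of all genes did. In CD123 KO cells 7 rose and 0 fell (29.6% and 29.9% of all genes), and in double KO cells 6 rose and 2 fell (28.8% and 29.8%). The lowest log2 fold changes of the 10 were -3.85, -0.38 and -5.77 in these clones. The median log2 fold change of the 10 myeloid markers was 0.44, 0.43 and 0.43 in CD33 KO, CD123 KO and double KO cells. The part of these marker changes in the members' levels was not tested.

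In wt cells the list was broadly expressed. Scaled per kilobase of exon (RPKM), the level in wt ran from 0.147 for SPATA18 to 99.6 for RPS27L, with a median of 9.07. CCNG1 (59.2) and CDKN1A (53.6) followed RPS27L, and GDF15 (1.59), EDA2R (0.709) and SPATA18 were lowest in RPKM.

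The 2 single knockout clones lay on opposite sides of wt. In CD33 KO cells 20 of 32 members fell and 6 rose at adjusted p under 0.05, where 32.5% of all genes tested fell and 30.6% rose, 63.1% together. The median log2 fold change of the members was -0.45, and that of all genes tested -0.02. In CD123 KO cells 19 rose and 3 fell, where 29.6% of all genes rose and 29.9% fell (59.5% together), with a median of 0.30 for the members and 0.01 for all genes. Double KO cells lay between: 11 members rose and 14 fell, beside 28.8% and 29.8% of all genes (58.6% together), and the median was -0.10. These 3 comparisons share the wt libraries. With SPATA18 held at its counting bound, the medians were the same.

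Most of these shifts were smaller than the fold threshold. In CD33 KO cells 5 of 32 members were called, 2 higher (EDA2R and PERP) and 3 lower (GDF15, TP53I3 and SPATA18), where 8.45% of all genes were called, 1.96% higher and 6.5% lower. CYFIP2 was the 1 member called in CD123 KO cells, lower, where 5.35% of all genes were called, 2.62% higher and 2.73% lower. Double KO cells had 4, 1 higher (PERP) and 3 lower (GDF15, SPATA18 and CYFIP2), where 9.21% of all genes were called, 1.86% higher and 7.36% lower. Counting libraries instead, 7 members lay above and 21 below every wt library in all CD33 KO libraries, where 69.9% of all genes were outside the wt range, 34.3% above and 35.7% below. In CD123 KO cells 17 lay above and 6 below (32.1% and 32.3% of all genes, 64.3% together), and in double KO cells 11 above and 16 below (30.2% and 31.7%, 61.8% together). The plot of log2 fold changes by role shows each member in the 3 clones.

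**Figure D1:**
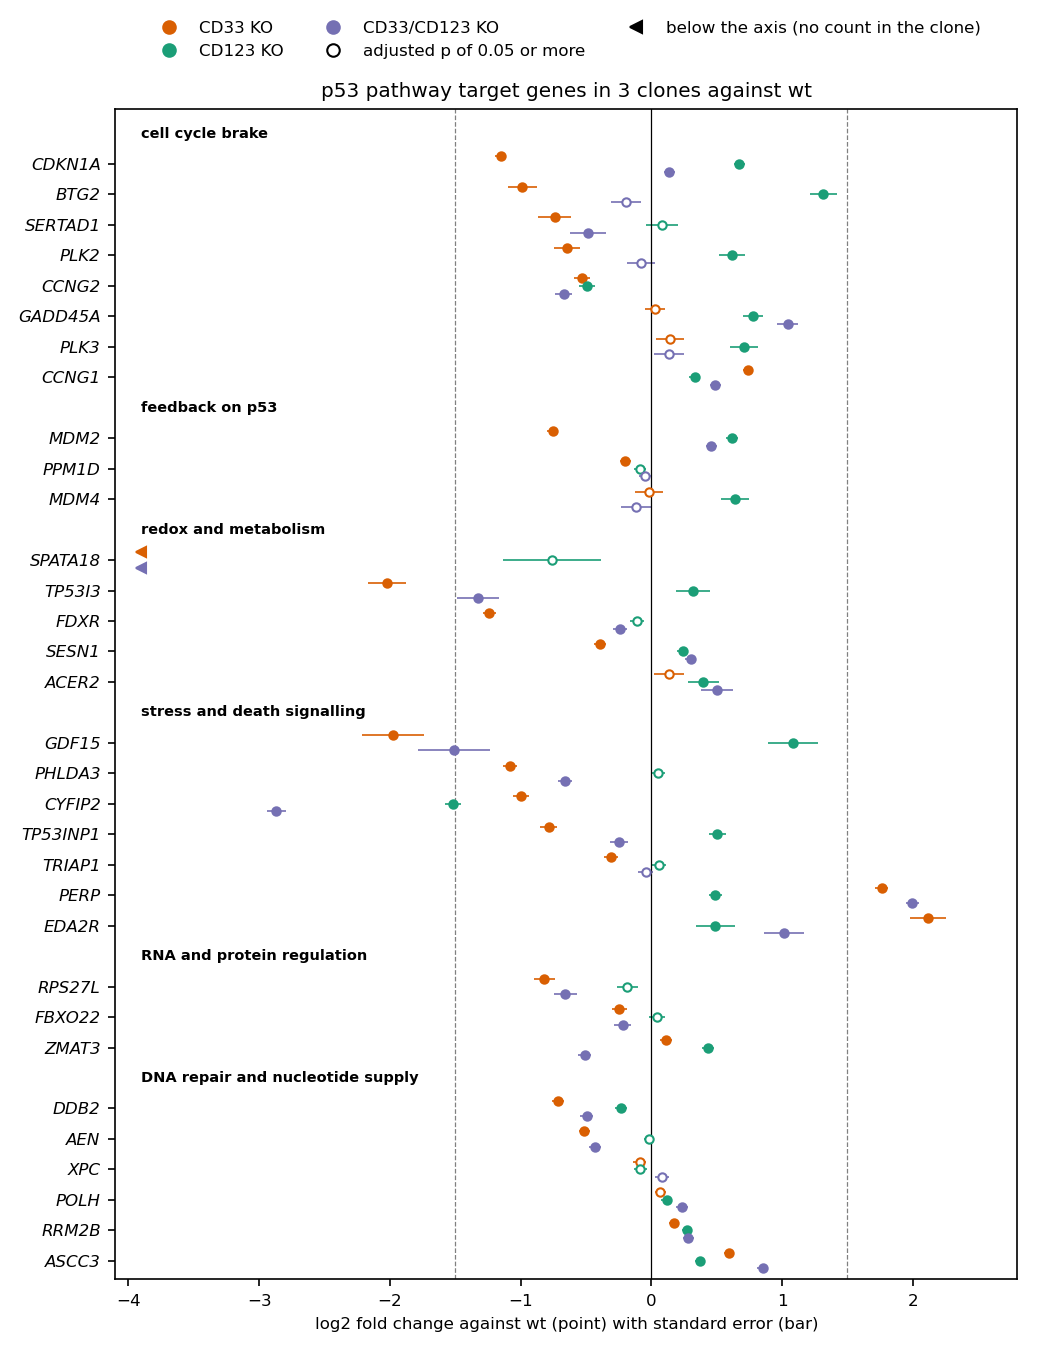
Log2 fold change of each of the 32 members against wt (horizontal axis, no unit) in CD33 KO, CD123 KO and double KO cells, with standard errors as bars, grouped by role; dashed lines mark the fold threshold of 1.5, open points have an adjusted p of 0.05 or more, and triangles mark a gene with no count in the clone. CDKN1A, BTG2, TP53INP1, PLK2 and GDF15 lie left of 0 in CD33 KO cells and right of 0 in CD123 KO cells, and EDA2R and PERP lie to the right in every clone.

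Set against each other, the 2 single knockout clones showed the widest gap. Of 32 members 24 were lower and 5 higher in CD33 KO cells than in CD123 KO cells, where 33.2% of all genes were lower and 31.7% higher. Libraries of the 2 clones did not overlap for 24 lower and 5 higher members, beside 35.1% and 34.7% of all genes. Between them 6 members were called: SPATA18, GDF15, TP53I3, BTG2 and CDKN1A lower and EDA2R higher in CD33 KO cells, where 7.45% of all genes were called, 1.31% higher and 6.14% lower. Against CD33 KO cells, double KO cells had 19 members higher and 4 lower, where 13.5% of all genes were higher and 14.5% lower; CYFIP2 was the 1 called member, lower, where 3.18% were called, 1.83% lower. Against CD123 KO cells there were 20 lower and 7 higher, where 29.9% and 29.7% of all genes were, and 5 were called: PERP higher (0.942% of all genes) and SPATA18, GDF15, TP53I3 and BTG2 lower (6.7%, 7.64% in either direction). PERP (1.51) and BTG2 (-1.51) sat at the fold threshold there. The PERP call ended without CD123 KO library 2 or double KO library 1, with upper-quartile or library-size scaling, with no low-count filter or one of 1 CPM, in a fit of only the compared groups and from the chromosome median. The BTG2 call ended without CD123 KO library 1 or double KO library 3 and from the chromosome median. The SPATA18 call ended in the fit of only the compared groups and with the 1 CPM filter, a level SPATA18 reaches in no library. These last comparisons share the double KO libraries. The bar chart of shares sets the members beside all genes in each comparison.

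**Figure D2:**
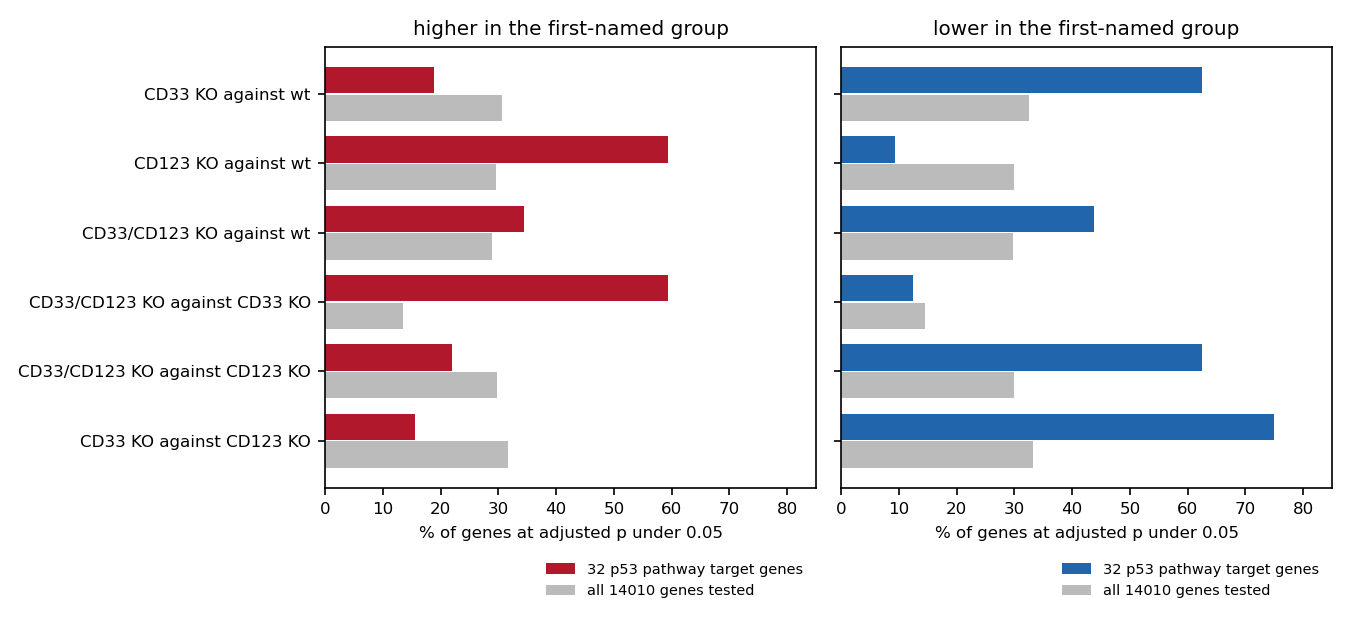
Share of the 32 members (coloured bars) and of all 14010 genes tested (grey bars), in percent, at an adjusted p under 0.05, higher (left) or lower (right) in the first-named group of each of 6 comparisons. The lower share of members reaches 75% for the CD33 KO against CD123 KO cells, where that of all genes is 33.2%.

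Among the cell cycle brakes, CDKN1A encodes p21, the cyclin-dependent kinase inhibitor through which p53 halts the cycle (hg19 chromosome 6, 36644237 to 36655116). It stood at 149.6, 138 and 136 CPM in wt, 65.8, 62.1 and 62.3 in CD33 KO cells, 233, 221 and 219.9 in CD123 KO cells and 153, 151 and 162 in double KO cells. Every CD33 KO library was below, and every CD123 KO library above, all wt libraries. The fall in CD33 KO cells was 2.22-fold (log2 -1.15, SE 0.04, adjusted p = 8.81e-18), the rise in CD123 KO cells 1.59-fold (log2 0.67, SE 0.04, adjusted p = 6.04e-13), and double KO cells stood slightly above wt (log2 0.14, SE 0.04, adjusted p = 0.00804). Between the 2 single knockout clones CDKN1A was called (log2 -1.82, SE 0.04, adjusted p = 6.17e-22).

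BTG2, an antiproliferative factor of the BTG/TOB family, had the largest rise in CD123 KO cells among the members. It read 68.3, 65.2 and 66.9 CPM in wt, 33.4, 33.3 and 34.3 in CD33 KO cells, 188, 153 and 158 in CD123 KO cells and 66.0, 60.0 and 48.2 in double KO cells. The CD123 KO libraries were all more than 150 CPM, and those of double KO cells overlapped wt. It rose in CD123 KO cells (log2 1.32, SE 0.10, adjusted p = 2.59e-06), fell in CD33 KO cells (log2 -0.99, SE 0.11, adjusted p = 2.78e-05), and did not pass in double KO cells (log2 -0.19, SE 0.11, adjusted p = 0.177).

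The stress-regulated kinase PLK2 showed the same order at a lower level, 8.09 ± 0.135 CPM in wt, 5.17 ± 0.268 in CD33 KO, 12.5 ± 1.50 in CD123 KO and 7.67 ± 0.294 in double KO cells (mean ± SD, n = 3). Its relative PLK3 rose in CD123 KO cells only to 11.8 ± 1.35 CPM from 7.15 ± 0.426 in wt (log2 0.71, SE 0.11, adjusted p = 2.93e-06), with log2 values of 0.14 and 0.14 in the other clones that did not pass. GADD45A, a growth arrest and DNA damage protein, stood at 12.3, 12.6 and 12.4 CPM in wt and 12.8, 12.0 and 13.2 in CD33 KO cells, and at 21.4, 22.3 and 20.4 and 24.8, 23.3 and 29.0 in CD123 KO and double KO cells. Both clones lacking CD123 lay above all wt libraries (log2 0.78 and 1.05, adjusted p = 3.55e-09 and 1.68e-11). SERTAD1, a transcriptional co-regulator that binds CDK4, fell in CD33 KO and double KO cells (log2 -0.74 and -0.48). It is grouped with the brakes for display, which does not mean that it slows the cycle.

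The 2 cyclins G did not follow CDKN1A. CCNG1, encoding cyclin G1, was higher in every clone: 145, 144 and 149 CPM in wt, 244, 248 and 239 in CD33 KO, 183, 174 and 194 in CD123 KO and 209, 204 and 203 in double KO cells, with no overlap between wt and any clone. Its largest rise was in CD33 KO cells (log2 0.74, SE 0.04, adjusted p = 1.32e-14), where CDKN1A fell. CCNG2, encoding cyclin G2, a brake known mainly as a FOXO target, fell in all 3 clones (log2 -0.53, -0.49 and -0.67).

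Of the feedback genes, MDM2 (hg19 chromosome 12, 69201952 to 69239324) followed CDKN1A between the single knockout clones. It stood at 214, 209.6 and 211 CPM in wt, 125, 124 and 128 in CD33 KO cells, 339.5, 300.4 and 334 in CD123 KO cells and 297, 294 and 283 in double KO cells, and the libraries of each clone lay outside the wt range. The log2 fold changes against wt were -0.75, 0.62 and 0.46 (adjusted p = 4.26e-14, 4.08e-12 and 9.14e-10). MDM4, whose protein binds and inhibits p53, read 134, 106 and 147 CPM in CD123 KO cells against 79.3, 83.7 and 84.9 in wt (log2 0.64, SE 0.11, adjusted p = 0.000686), and its log2 values of -0.02 and -0.12 in CD33 KO and double KO cells did not pass. PPM1D, the phosphatase WIP1 that switches the response off, stood at 68.6 ± 3.25 CPM in wt and 59.7 to 66.3 in the clones, and it fell in CD33 KO cells (log2 -0.20, SE 0.04, adjusted p = 0.000365).

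**Figure D3:**
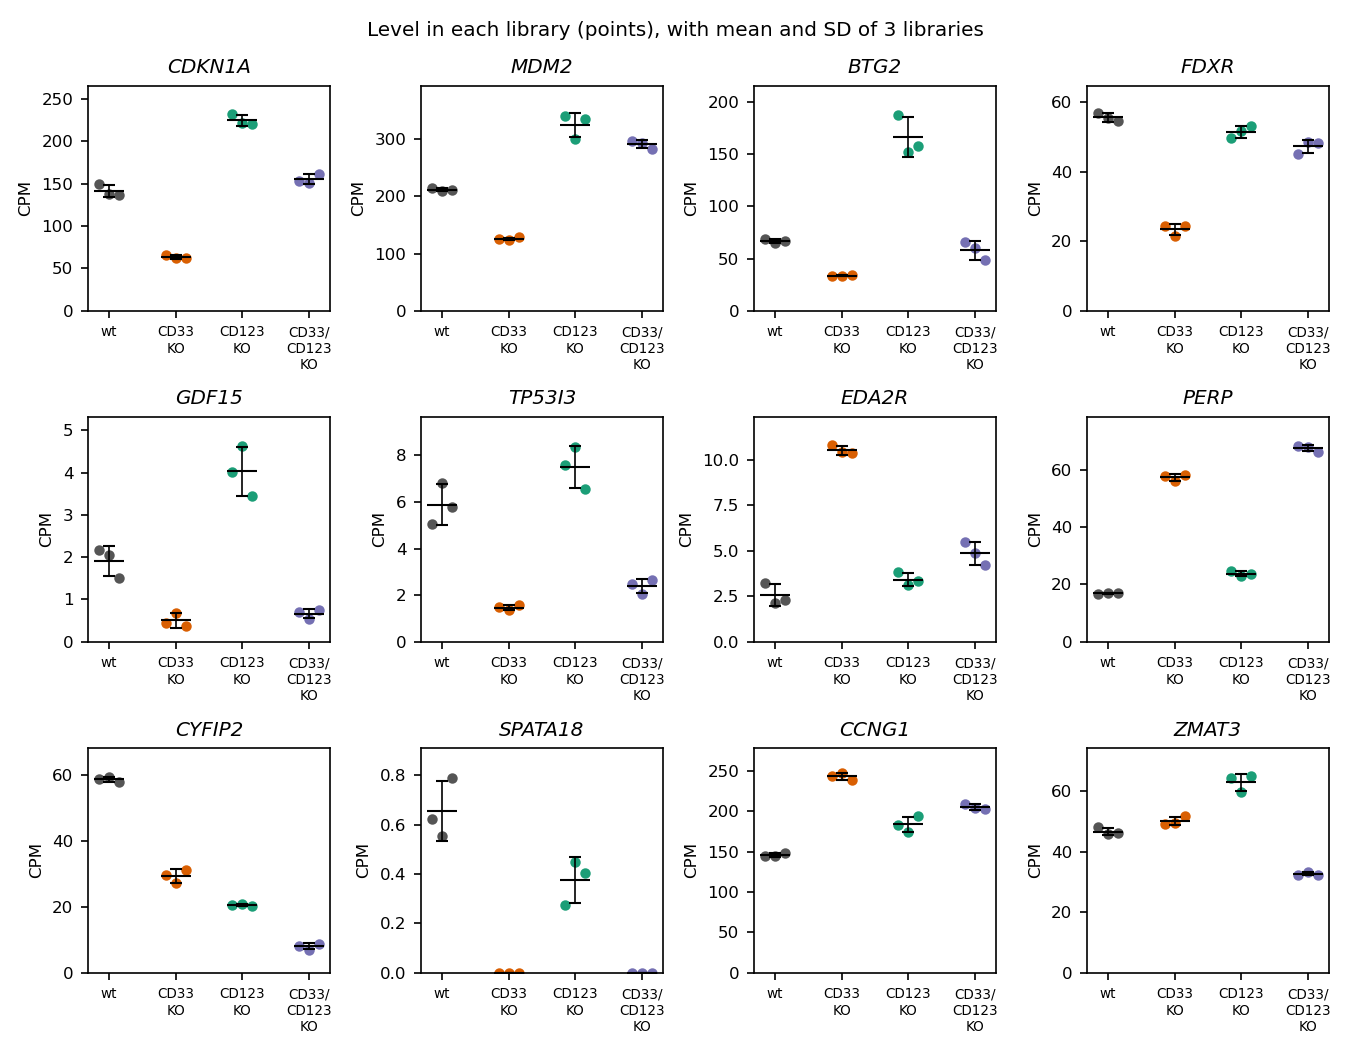
CPM in each library (points) with mean and SD of 3 libraries (bars) for 12 members in wt and CD33 KO, CD123 KO and double KO cells; each vertical axis starts at 0. CDKN1A, MDM2, BTG2, GDF15 and TP53I3 are lowest in CD33 KO cells and highest in CD123 KO cells, EDA2R and PERP are high in CD33 KO cells, and SPATA18 has no count in CD33 KO and double KO cells.

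The metabolic members included the 2 whose transcripts dropped furthest in CD33 KO cells. TP53I3 (hg19 chromosome 2, 24300303 to 24308085), a quinone oxidoreductase also called PIG3, stood at 5.04, 6.81 and 5.80 CPM in wt, 1.50, 1.35 and 1.56 in CD33 KO, 7.59, 8.37 and 6.55 in CD123 KO and 2.47, 2.04 and 2.66 in double KO cells. Both clones lacking CD33 lay below all wt libraries, while the CD123 KO libraries overlapped wt (log2 0.32, SE 0.13, adjusted p = 0.0358). It was called in CD33 KO cells (log2 -2.02, SE 0.15, adjusted p = 5.04e-12) and fell short of the fold threshold in double KO cells (log2 -1.32, SE 0.16, adjusted p = 6.87e-08). Part of its exon length, 23.2%, lies opposite exons of FAM228B, which stood at 4.42 CPM in wt and 4.73 to 5.84 in the clones. Whether counting used strand is not stated in the labels or headers, and without it reads from that stretch of the 2 genes cannot be told apart.

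SPATA18 (hg19 chromosome 4, 52917497 to 52963471), which encodes the mitochondria-eating protein of mitochondrial quality control, gave 10, 30 and 25 counts in wt and 8, 16 and 17 in CD123 KO cells, and 0 in all 6 libraries of CD33 KO and double KO cells. Taking 3 counts summed over the group as the floor, SPATA18 was at least 31.5-fold lower than wt in CD33 KO cells and at least 12.1-fold lower in double KO cells, for counting error only. Its level in wt was 0.655 ± 0.120 CPM (mean ± SD, n = 3), so the absolute amount lost was small. It entered the test through wt and CD123 KO cells, the groups where it has counts. No library reached 1 CPM (highest 0.788, wt library 3), so the alternative filter of 1 CPM leaves SPATA18 untested and ends its calls in every comparison. In CD123 KO cells it did not pass (log2 -0.76, SE 0.38, adjusted p = 0.0893).

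FDXR, the ferredoxin reductase of mitochondrial iron-sulphur and steroid metabolism, separated CD33 KO cells from all other groups. It read 57.1, 55.5 and 54.6 CPM in wt, 24.6, 21.6 and 24.3 in CD33 KO, 49.7, 51.8 and 53.3 in CD123 KO and 45.0, 48.6 and 48.3 in double KO cells, with no overlap between the CD33 KO libraries and any other library. The fall against wt was 2.36-fold (log2 -1.24, SE 0.05, adjusted p = 1.01e-16). SESN1, a sestrin that restrains mTORC1, fell in CD33 KO cells (log2 -0.39) and rose in CD123 KO and double KO cells (log2 0.24 and 0.30). ACER2, a ceramidase of the Golgi, rose in CD123 KO and double KO cells from 5.03 ± 0.265 CPM in wt to 6.69 ± 0.195 and 7.18 ± 0.989 (mean ± SD, n = 3), and at 5.55 CPM did not pass in CD33 KO cells.

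Among stress and death signals, GDF15, a secreted stress cytokine, was low in level but wide in range. It stood at 2.18, 2.05 and 1.51 CPM in wt, 0.454, 0.690 and 0.362 in CD33 KO, 4.02, 4.62 and 3.46 in CD123 KO and 0.693, 0.539 and 0.752 in double KO cells, and no clone overlapped wt. It was called lower in CD33 KO cells (log2 -1.98, SE 0.24, adjusted p = 6.40e-08) and in double KO cells (log2 -1.51, SE 0.27, adjusted p = 3.73e-05), and rose in CD123 KO cells (log2 1.08, SE 0.19, adjusted p = 2.43e-05). The call in double KO cells sat at the fold threshold: it ended without wt library 1 (log2 -1.45), wt library 2 (-1.41) or double KO library 2 (-1.40), and with limma-voom (-1.47).

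TP53INP1, a cofactor of p53 in stress and autophagy, fell in CD33 KO cells (log2 -0.78, SE 0.07, adjusted p = 1.17e-10) and rose in CD123 KO cells (log2 0.50, SE 0.06, adjusted p = 2.53e-07), with 30.8 ± 0.909 CPM in wt, 17.9 ± 0.501 and 43.7 ± 2.70 in those clones (mean ± SD, n = 3). Double KO cells had 25.9 ± 2.95 CPM (log2 -0.25). PHLDA3, which dampens AKT, read 53.5, 52.6 and 48.5 CPM in wt, 24.3, 25.1 and 23.7 in CD33 KO, 52.5, 54.4 and 53.4 in CD123 KO and 33.4, 31.0 and 33.2 in double KO cells. Both clones lacking CD33 lay below wt (log2 -1.08 and -0.66), and CD123 KO cells overlapped it. TRIAP1, a small mitochondrial survival factor, fell by 0.31 on the log2 scale in CD33 KO cells and did not pass in the others (log2 0.06 and -0.04).

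Both rises called in CD33 KO cells were of membrane proteins. EDA2R (hg19 chromosome X, 65815482 to 65859140), the receptor of ectodysplasin A2 in the TNF receptor family, stood at 3.24, 2.12 and 2.27 CPM in wt, 10.8, 10.4 and 10.3 in CD33 KO, 3.81, 3.11 and 3.31 in CD123 KO and 5.50, 4.85 and 4.22 in double KO cells. The CD33 KO libraries were above all others, and those of CD123 KO cells overlapped wt (log2 0.49, SE 0.15, adjusted p = 0.00693). The rise was 4.35-fold in CD33 KO cells (log2 2.12, SE 0.14, adjusted p = 5.08e-13) and 2.02-fold in double KO cells (log2 1.02, SE 0.16, adjusted p = 3.43e-06).

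PERP (hg19 chromosome 6, 138409642 to 138428660), a tetraspan protein of desmosomes and p53-dependent death, read 16.7, 16.9 and 17.0 CPM in wt, 57.8, 56.0 and 58.3 in CD33 KO, 24.6, 23.0 and 23.8 in CD123 KO and 68.4, 68.1 and 66.3 in double KO cells, with no overlap between wt and any clone. The rise was 3.39-fold in CD33 KO cells (log2 1.76, SE 0.05, adjusted p = 1.73e-20) and 3.99-fold in double KO cells (log2 2.00, SE 0.05, adjusted p = 2.82e-21), both called, and 1.41-fold in CD123 KO cells (log2 0.49). PERP lies on chromosome 6, where other genes were raised too, as given further on.

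CYFIP2 (hg19 chromosome 5, 156693090 to 156822606), a subunit of the actin-regulating WAVE complex, was lower in every clone and lowest in the clone with both edits. It stood at 59.0, 59.4 and 58.0 CPM in wt, 29.7, 27.2 and 31.3 in CD33 KO, 20.6, 20.9 and 20.3 in CD123 KO and 8.23, 7.01 and 8.84 in double KO cells, and the 4 groups did not overlap. It was called in CD123 KO cells (log2 -1.51, SE 0.06, adjusted p = 8.44e-17) and double KO cells (log2 -2.87, SE 0.07, adjusted p = 3.12e-21), and fell by 1.00 on the log2 scale in CD33 KO cells (SE 0.06, adjusted p = 6.12e-14). The call in CD123 KO cells sat just past the fold threshold.

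Of the 6 repair and nucleotide genes 0 were called in any clone, where 8.45%, 5.35% and 9.21% of all genes were in CD33 KO, CD123 KO and double KO cells. DDB2, which recognises ultraviolet damage, fell in all 3 clones, from 74.1 ± 3.62 CPM in wt to 45.3 ± 0.589 in CD33 KO, 63.3 ± 1.13 in CD123 KO and 52.7 ± 2.97 in double KO cells (mean ± SD, n = 3). AEN, an exonuclease of apoptotic DNA breakdown, fell in CD33 KO and double KO cells (log2 -0.51 and -0.43). XPC, the partner of DDB2 in damage recognition, did not pass in any clone (log2 -0.09, -0.09 and 0.08). The translesion polymerase gene POLH passed in CD123 KO and double KO cells with log2 values of 0.12 and 0.24, and the ribonucleotide reductase subunit RRM2B rose in all 3, by 0.18, 0.28 and 0.28. ASCC3, a helicase of alkylation repair, rose in all 3 as well, by 0.60, 0.37 and 0.85.

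Of the genes acting on RNA and protein, the ribosomal protein-like gene RPS27L fell from 108 ± 0.526 CPM in wt to 61.4 ± 3.03 in CD33 KO and 68.4 ± 7.93 in double KO cells (mean ± SD, n = 3; log2 -0.82 and -0.66), and did not pass in CD123 KO cells (log2 -0.18, SE 0.08, adjusted p = 0.0691). FBXO22, an F-box protein of a ubiquitin ligase, fell in the same 2 clones (log2 -0.24 and -0.22). ZMAT3, an RNA-binding zinc finger protein that steers splicing, had its own order: 48.0, 45.7 and 46.1 CPM in wt, 49.3, 49.4 and 51.8 in CD33 KO, 64.3, 59.6 and 64.9 in CD123 KO and 32.4, 33.2 and 32.4 in double KO cells. It rose in CD123 KO cells (log2 0.44, SE 0.05, adjusted p = 1.06e-08) and fell in the clone with both edits (log2 -0.51, SE 0.05, adjusted p = 3.16e-09).

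The design crosses the 2 edits, so each gene could be asked whether the change from CD33 KO to CD33/CD123 KO equalled that from wt to CD123 KO. This non-additivity was called for 1 member, EDA2R (log2 -1.59, SE 0.20, adjusted p = 3.08e-07), where 6.1% of all genes were called, 2.42% positive and 3.68% negative. Without wt library 2 the EDA2R call ended. At adjusted p alone 20 members passed, 11 positive and 9 negative, where 49.3% of all genes did, 24.6% positive and 24.7% negative. FDXR had the largest positive value (log2 1.11, SE 0.08, adjusted p = 5.04e-12): it did not pass between wt and CD123 KO cells (log2 -0.11) and rose by 1.00 between the CD33 KO and double KO cells. CDKN1A and MDM2 rose in both steps, by 0.67 and 0.62 from wt to CD123 KO and by 1.29 and 1.21 from CD33 KO to CD33/CD123 KO, with non-additivity of 0.62 and 0.60 (adjusted p = 5.11e-09 and 9.15e-09). ZMAT3 had the largest negative value after EDA2R (log2 -1.06, SE 0.07, adjusted p = 1.99e-12). Each genotype is 1 clone, so an interaction of the edits and a difference between clones cannot be told apart.

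Members on chromosome 6 sat among neighbours that were raised in every clone. The 612 tested genes of that chromosome had a median log2 fold change against wt of 0.58 in CD33 KO, 0.37 in CD123 KO and 0.55 in double KO cells. The 5 members there are CDKN1A, POLH, SESN1, ASCC3 and PERP. Genes within 5 Mb of PERP had a median of 0.59, 0.54 and 0.55 in the 3 clones, beside 1.76, 0.49 and 2.00 for PERP. Measured from the chromosome median, PERP stood at 1.18 in CD33 KO and 1.45 in double KO cells, under the fold threshold. ASCC3 was near its neighbours, whose medians were 0.82, 0.52 and 0.79. CDKN1A, whose neighbours had medians of 0.53, 0.27 and 0.63, fell in CD33 KO cells against that shift. Measured from the chromosome median, the fall of CDKN1A there (log2 -1.15 against wt) passed the fold threshold. POLH and SESN1 stood below the medians of their neighbours in every clone (0.56, 0.28 and 0.51 for POLH, 0.59, 0.32 and 0.62 for SESN1). Neighbours of RRM2B on chromosome 8 also had raised medians, 0.35, 0.19 and 0.38. So did those of TP53INP1 on the same chromosome (0.34, 0.18 and 0.29), which itself fell in CD33 KO and double KO cells (log2 -0.78 and -0.25). All tested genes of chromosome 8 had medians of -0.34, -0.05 and -0.33. The part of these shifts in the members' changes was not tested. Among the 27 members off chromosome 6, 18 fell and 4 rose in CD33 KO cells, where 33.8% and 28.7% of the 13276 tested genes placed on other chromosomes did. In CD123 KO cells 14 of the 27 rose and 3 fell, beside 28.1% and 31.1% of those genes, and in double KO cells 6 rose and 14 fell, beside 26.9% and 31%.

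**Figure D4:**
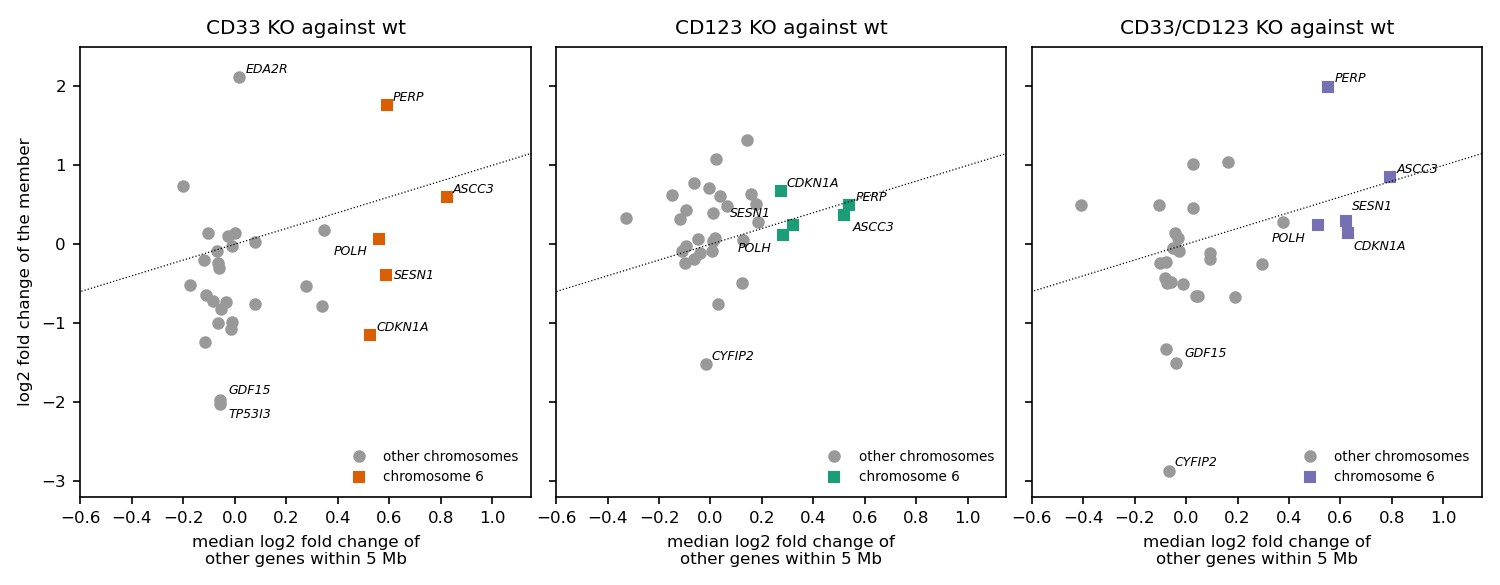
Log2 fold change of each member against wt (vertical axis) and the median log2 fold change of the other tested genes within 5 Mb (horizontal axis) in each clone; coloured squares are the 5 members on chromosome 6, grey points the others, the dotted line marks equality, and SPATA18 is left out where it has no count. ASCC3 lies near the line in every panel, while PERP lies far above it in CD33 KO and double KO cells and CDKN1A far below it in CD33 KO cells.

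The genes that control p53 were read from a list of 39 regulators and cofactors, all tested. The largest change was of CDKN2A (hg19 chromosome 9, 21967751 to 21994490), whose locus encodes the kinase inhibitor p16 and ARF, an inhibitor of MDM2, which gene counts do not separate. CDKN2A read 11.9, 9.01 and 6.87 CPM in wt, 131, 128 and 132 in CD33 KO, 187, 182 and 167 in CD123 KO and 238, 249 and 274 in double KO cells, and every clone library was far above wt. The log2 fold changes were 3.88, 4.33 and 4.83 (adjusted p = 1.35e-09, 9.02e-10 and 2.86e-10).

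The p53 relatives moved apart from each other in double KO cells. TP73 read 26.1, 25.1 and 25.4 CPM in wt, 43.9, 42.7 and 43.0 in CD33 KO, 105, 99.0 and 102 in CD123 KO and 199.9, 201 and 213 in double KO cells, and the 4 groups did not overlap. It was called in CD123 KO and double KO cells (log2 2.00 and 3.01) and rose by 0.77 in CD33 KO cells. TP63 fell from 6.45 ± 0.445 CPM in wt to 0.625 ± 0.100 in double KO cells (mean ± SD, n = 3; log2 -3.37, SE 0.18, adjusted p = 1.03e-14). PPP1R13B, which encodes the p53 cofactor ASPP1, was called lower in CD123 KO cells (log2 -1.86, SE 0.22, adjusted p = 7.45e-08), and fell by less than the fold threshold in CD33 KO cells and in double KO cells (log2 -1.37 in the latter). The lowest log2 fold change of the 39 in CD33 KO cells was -1.496, just short of the threshold. In all, 1, 3 and 3 of the 39 were called in CD33 KO, CD123 KO and double KO cells, in that order, where 8.45%, 5.35% and 9.21% of all genes were. At adjusted p alone 16 rose and 12 fell, 11 rose and 18 fell, and 16 rose and 8 fell, 28, 29 and 24 of 39 in either direction, where 63.1%, 59.5% and 58.6% of all genes changed. The plot of 3 of these regulators shows the steps of CDKN2A, TP73 and TP63 by library.

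**Figure D5:**
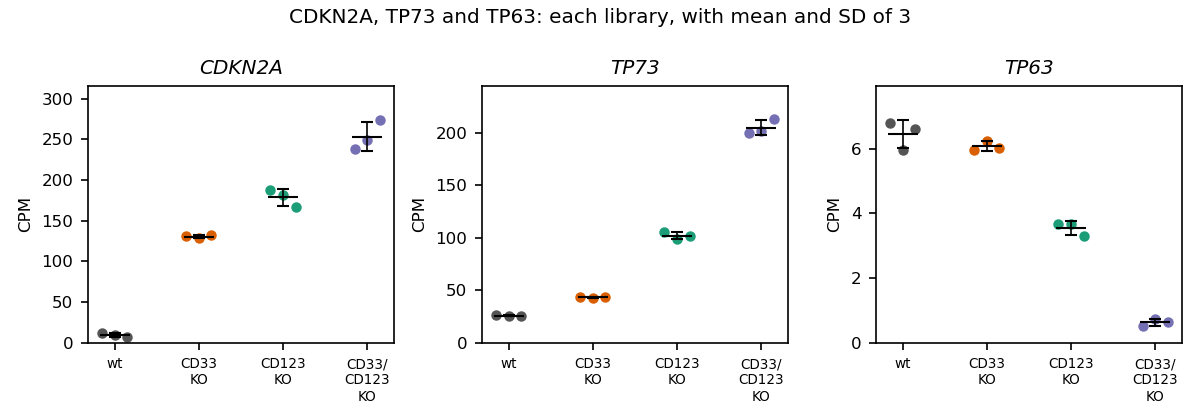
CPM in each library (points) with mean and SD of 3 libraries (bars) for CDKN2A, TP73 and TP63 in wt and CD33 KO, CD123 KO and double KO cells; each vertical axis starts at 0. CDKN2A is near the floor of its axis in wt and higher in every clone, TP73 climbs to its highest level and TP63 drops to its lowest in double KO cells.

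A further 59 genes described elsewhere as direct p53 targets were counted, of which 53 were tested. In CD33 KO cells 22 of 53 fell and 14 rose, and 6 were called, all lower, where 32.5% of all genes fell, 30.6% rose and 8.45% were called. FUCA1, a lysosomal fucosidase, fell from 8.61 ± 0.393 to 1.23 ± 0.0943 CPM (mean ± SD, n = 3), and CMBL, VWCE and the growth factor gene TGFA fell as well (log2 -3.46, -4.33 and -3.43). In CD123 KO cells 27 rose and 13 fell, where 29.6% of all genes rose, 29.9% fell and 5.35% were called, with SYTL1 called higher (log2 2.30) and CMBL and CSF1 called lower (log2 -1.73 and -1.90). FUCA1 was 22.6 ± 2.46 CPM there (log2 1.39, SE 0.10, adjusted p = 1.71e-11). In double KO cells 18 rose and 17 fell, and 5 were called lower, where 28.8% of all genes rose, 29.8% fell and 9.21% were called. Among the called were FUCA1, CMBL, VWCE and TGFA (log2 -2.44, -2.92, -3.51 and -3.76). Medians of the 53 were -0.09, 0.21 and 0.05 in the 3 clones.

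When p21 is high, it frees the DREAM complex to hold down genes of replication and mitosis, and 30 such genes were read beside CDKN1A. Their changes were all smaller than the fold threshold in each clone, where 8.45%, 5.35% and 9.21% of all genes were called. At adjusted p alone 28 of 30 fell and 0 rose in CD123 KO cells, where 29.9% of all genes fell and 29.6% rose, with a median log2 fold change of -0.68. In CD33 KO cells, where CDKN1A was low, 22 fell and 3 rose, where 32.5% of all genes fell and 30.6% rose, with a median of -0.26, and in double KO cells 21 fell and 3 rose (median -0.28), where 29.8% of all genes fell and 28.8% rose. MKI67, the gene of the proliferation antigen Ki-67, stood at 395, 339.6 and 383 CPM in wt, 235, 231 and 256 in CD33 KO, 119, 119.6 and 106 in CD123 KO and 263, 230.0 and 234 in double KO cells (log2 -0.63, -1.70 and -0.62). Set directly against CD123 KO cells, CD33 KO cells had 29 of the 30 higher and 0 lower, where 31.7% of all genes were higher and 33.2% lower. CHEK1 belongs both to these 30 and to the 39 regulators.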

How the data were processed

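The deposited table holds raw counts per gene for 12 poly(A)-selected libraries, as the authors left them before any normalization. The submitters' processing notes name HISAT2, featureCounts and edgeR and the build hg19; their versions and settings are not given in these sources. Per the file headers, the other column used, Length, is the summed exon length in bases. Groups followed the genotype labels. The main test was the robust quasi-likelihood test of edgeR 4.0.16 in R 4.3.3, in 1 fit of all 12 libraries without covariates, after the filterByExpr filter and TMM scaling, with Benjamini-Hochberg adjustment over 14010 genes in each of 7 comparisons. Standard errors come from the F statistic, and RPKM is CPM per kilobase of exon. The common biological coefficient of variation was 5.41%. The test was tried on simulated data. Members and lists were chosen with earlier results of these data known. All members were eligible to be named; of other lists, up to 4 called genes with the smallest adjusted p per clone were named, besides CD33, IL3RA, MKI67 and genes given as background to a list. COP1 and TIGAR were read under the older symbols RFWD2 and C12orf5. Alternatives were other scalings, filters, tools (DESeq2 1.42.0, limma-voom with limma 3.58.1), thresholds and libraries left out. Protein sequences were not used here, and 1 reference gene of the naming rule is not reported here.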

Additional observations from a re-analysis of the deposited data

Results flagged for a closer look

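For EDA2R, the step from wt to CD123 KO cells differed from that between CD33 KO and double KO cells; each edited genotype is 1 clone. It was 0.49 on the log2 scale from wt (adjusted p = 0.00693) and -1.10 from CD33 KO to double KO cells (adjusted p = 2.70e-07), a difference of -1.59 by edgeR's interaction contrast (adjusted p = 3.08e-07). The wt libraries stood at 3.24, 2.12 and 2.27 CPM, and without library 2 of that group the difference was no longer called.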

How the results depend on the processing

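Counts of called members are given in the order CD33 KO, CD123 KO and CD33/CD123 KO against wt, CD33/CD123 KO against CD33 KO and against CD123 KO, CD33 KO against CD123 KO, and non-additivity; as reported they were 5, 1, 4, 1, 5, 6 and 1. At adjusted p alone they were 26, 22, 25, 23, 27, 29 and 20. With a log2 fold change over 1 the first 4 were 8, 3, 7 and 6, and the last 2 were 12 and 3. CD33/CD123 KO against CD123 KO fell to 3 with at least 1 CPM in 3 libraries, to 3 in a fit of only the compared groups and to 3 from the chromosome median. The chromosome median also took CD33/CD123 KO against wt to 2 (PERP and GDF15 lost), and in CD33 KO against wt PERP was lost and CDKN1A gained. Limma-voom called 2 members for non-additivity. Leaving out each library in turn gave 5 to 5, 1 to 1, 3 to 4, 1 to 1, 4 to 5, 6 to 6 and 0 to 1 (0 without wt library 2), and at adjusted p alone 25 to 26, 20 to 23, 24 to 26, 19 to 23, 24 to 26, 26 to 29 and 18 to 20. No called member changed sign against wt under any alternative run. Scaling by library size alone moved the median of all genes by -0.12, -0.03 and -0.11 in the 3 clones. The chromosome-median values keep the adjusted p of the unshifted test. No paired analysis was possible because the labels give no replicate numbers shared between groups. Depth limits SPATA18, GDF15, EDA2R and TP53I3, which have few counts, and the 1 CPM filter leaves SPATA18 untested in every comparison. Among the other direct targets it also limits SYTL1, which had 2 counts in the double KO libraries together.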

Other observations

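SESN2, a stress-induced sestrin in the list of other direct targets, was singled out after its values were seen. It stood at 52.9, 53.7 and 49.7 CPM in wt, 94.1, 100.5 and 97.6 in CD33 KO, 55.0, 57.5 and 53.2 in CD123 KO and 55.6, 62.6 and 110.2 in double KO cells, so it was higher in CD33 KO cells (log2 0.90, SE 0.21, adjusted p = 0.00509, edgeR), where its relative SESN1 fell. In double KO cells, libraries 1 and 2 lay near wt and library 3 near CD33 KO cells. Of the 31 members with counts in double KO cells, library 3 was the lowest of its group for 17 and the highest for 8. Library 1 of that group was the lowest for 5 and the highest for 17. Other clones were as uneven: CD123 KO library 2 was the lowest for 17 of 32 members and CD33 KO library 2 for 16 of 31. BTG2, RPS27L, TP53INP1 and TRIAP1, chosen after their values were seen, are among those lowest in double KO library 3. TIGAR, listed as C12orf5, which shifts glucose use away from glycolysis, stood at 17.0 ± 0.650 CPM in wt, 13.9 ± 0.301 in CD33 KO, 28.1 ± 0.918 in CD123 KO and 16.7 ± 0.561 in double KO cells (mean ± SD, n = 3) and was likewise chosen after its values were seen.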
